A study of Mus musculus with 6 samples.

Results

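The 10 genes described here belong to the integrated stress response and were followed in primary mouse prostate cells after deletion of Rb: Atf4, Atf3, Ddit3, Trib3, Nupr1, Asns, Chac1, Sesn2, Ddit4 and Gdf15. They are 10 of 20832 named genes on the array, were measured by 11 of its 39429 probes and matched by RefSeq accession, and were picked because several of them were higher in Rb deleted cells. Their own differences between the groups are therefore a description and carry no test.

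The data were Cy3 expression arrays of 6 cultures from prostates that lacked p53 and carried an Rb gene flanked by loxP sites. The 3 Rb deleted cultures (p53-/- Rb deltaf/deltaf) had been infected overnight with an adenovirus carrying Cre recombinase, and the 3 Rb intact cultures (p53-/- Rbf/f) with an adenovirus carrying lacZ. Both grew in serum-free medium with bFGF and bEGF, and RNA was taken 48 hours after infection. The design names independent experiments. The labels give no age, and no statement of how many animals each culture came from. The Cre vector and the loss of Rb cannot be told apart in this design. Levels are log2 intensity relative to the 75th percentile of each array; a difference is the Rb deleted value minus the Rb intact one on that scale.

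The integrated stress response is a pathway in which kinases sense amino acid shortage, misfolded protein in the endoplasmic reticulum, viral RNA or lack of heme and phosphorylate the translation factor eIF2. General translation then slows while the mRNA of the transcription factor Atf4 is translated more, so Atf4 activity is set largely at translation and its own mRNA is only a partial readout. Atf4 pairs with C/EBP proteins and related factors at composite DNA elements and switches on genes for amino acid synthesis, uptake and tRNA charging, together with regulators that end or redirect the response. Several of the genes here, among them Gdf15, Sesn2, Ddit4 and Atf3, are also known as p53 targets, and p53 was absent from both groups.

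Of the 10 genes, 5 carried a match to the C/EBP-ATF composite element in the promoter window that RefSeq gives on GRCm38.p6, which runs from 250 bases before to 50 bases after the transcript start. The search used the letters TGATGNAA on either strand. The stretches around these matches are shown because the element is the DNA site through which Atf4 is known to act. Each is printed 5′ to 3′ on the strand of the gene, with the match in capitals.
Atf3 (chr1:191183410-191183469, minus strand): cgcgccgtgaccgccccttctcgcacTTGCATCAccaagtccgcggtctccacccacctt
Nupr1 (chr7:126625547-126625606, minus strand): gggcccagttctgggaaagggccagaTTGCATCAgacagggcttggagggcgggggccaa
Chac1 (chr2:119351023-119351082, plus strand): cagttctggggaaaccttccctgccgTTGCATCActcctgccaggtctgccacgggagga
Asns (chr6:7693210-7693269, minus strand): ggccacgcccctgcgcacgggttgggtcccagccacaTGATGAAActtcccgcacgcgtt
Trib3 (chr2:152344028-152344057, minus strand): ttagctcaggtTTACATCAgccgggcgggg

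In Atf3, Nupr1 and Chac1 the 8 matched bases were the same, on the opposite strand. Their matches began 110, 110 and 193 bases before the transcript start. The Asns match lay on the strand of the gene and began 23 bases before the start, and the Trib3 match began at base 15 of the transcript. No match lay in the windows of Atf4, Ddit3, Sesn2 and Ddit4, nor in the 2 windows of Gdf15. Over all 32851 promoter windows 3.97% held the motif, and of the 10928 tested genes with a window 2.86% did. An E2F-like site, named for the E2F factors that Rb restrains and searched as TTTNNCGC on both strands, was in none of the windows of the 10 genes, against 9.3% of tested genes. Neither the cyclic AMP response element TGACGTCA, held by 3.43% of tested genes, nor the ER stress response element (CCAAT, 9 bases of any kind, CCACG), held by 0.183%, was in any of them; both were searched on both strands, and no composite match overlapped another motif.

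**Figure D1:**
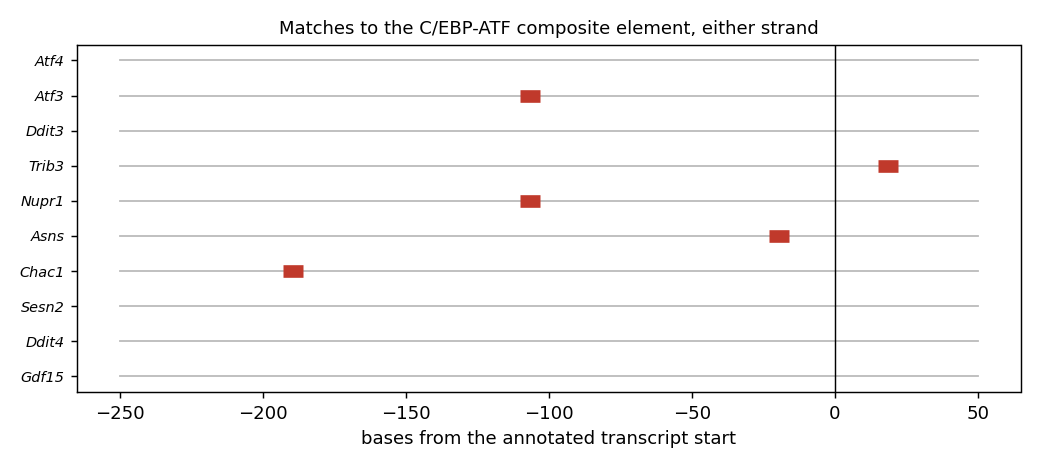
Position of matches to the C/EBP-ATF composite element in the promoter windows of the 10 genes. The horizontal axis is the distance in bases from the annotated transcript start, each grey line is the window searched and each red block is a match on either strand; 5 of the 10 genes hold 1 match each (for Gdf15, both windows are without one).

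The share of probes well above background ran from 58.7% to 63.3% over the arrays, and saturated spots were absent. Rb1, the targeted gene, stood at -2.98, -2.97 and -2.93 in Rb deleted cultures 1, 2 and 3, against -1.01, -0.996 and -1.03 in Rb intact cultures 1, 2 and 3; where its probe lies relative to the deleted part was not known here. Trp53 gave signal in both groups (difference -0.30 ± 0.15, SE; limma adjusted p = 0.209), and its probe does not check the labels. Rb deleted 2 and 3 were on a second slide with no Rb intact array, so only Rb deleted 1 shared a slide with the Rb intact arrays. Of 13729 tested genes, 10.2% passed the threshold upward and 10.4% downward (limma, Benjamini-Hochberg adjusted p under 0.05), and the median difference over all of them was 0.02. At an unadjusted p under 0.05 in limma, 19.0% were higher and 16.7% lower. Of the cell type markers, 5 of 8 basal epithelial, 5 of 8 luminal epithelial, all 8 fibroblast and 5 of 7 leukocyte and endothelial markers were well above background on every array. They included the basal markers Trp63 and Itga6 and the luminal marker Krt18, while the basal markers Krt15 and Cdh3, Epcam and the pan-leukocyte marker Ptprc were not well above background on any. In such bulk RNA, fewer cells of a type cannot be told apart from less RNA per cell.

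All 10 genes were higher in each Rb deleted culture than in any Rb intact culture, with differences between 0.26 and 1.75 and a median of 0.63. Groups were separated in this way, Rb deleted higher, for 24.4% of all tested genes. The difference passed the limma threshold for 9 of the 10, beside 10.2% of all tested genes; since the genes were chosen on this contrast, nothing follows from that count. All 10 were well above background on all 6 arrays, so none entered through the filter on dim probes.

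Of the transcription factors, Atf4 itself was measured by 2 probes, and Rb deleted was higher on both. On the brighter probe, A_55_P1979728, Atf4 stood at 6.26, 6.09 and 6.22 in Rb deleted 1, 2 and 3, against 5.89, 5.81 and 5.83 in Rb intact 1, 2 and 3, a difference of 0.34 ± 0.07 (SE of the fit over single probes). The other probe, A_51_P464238, gave 1.53, 1.60 and 1.62 in Rb deleted and 0.85, 0.95 and 0.96 in Rb intact, a difference of 0.67 ± 0.06. The groups did not overlap on either probe, but the probes disagreed in size, 1.27-fold on the first and 1.59-fold on the second.

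Atf3, a bZIP repressor induced early in many stresses, stood at -1.36, -1.29 and -1.38 in Rb deleted 1, 2 and 3, against -2.83, -2.48 and -2.55 in Rb intact 1, 2 and 3. The groups did not come near each other, and the difference was 1.28 ± 0.10 (SE), or 2.43-fold. Ddit3 encodes Chop, the bZIP factor that turns prolonged stress towards cell death. It stood at 0.98, 1.09 and 1.00 in Rb deleted and at 0.05, 0.23 and 0.31 in Rb intact, a difference of 0.83 ± 0.08 or 1.77-fold. For both genes the lowest array of the 6 was Rb intact 1, and the Rb deleted cultures lay within 0.11 of each other.

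Trib3, a pseudokinase that Atf4 and Chop induce and that in turn restrains Atf4, stood at 3.31, 3.44 and 3.37 in Rb deleted 1, 2 and 3. In Rb intact 1, 2 and 3 it stood at 2.56, 2.13 and 2.55. The difference was 0.96 ± 0.12 (1.95-fold). Rb intact 2 was the lowest array, and Rb intact 1 and 3 lay close together. Nupr1, a small chromatin-associated stress protein, was less far apart, at 3.70, 3.83 and 3.80 in Rb deleted and 3.39, 3.40 and 3.47 in Rb intact. Its difference was 0.35 ± 0.06, or 1.28-fold.

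Of the enzymes, Asns makes asparagine and is the classical gene of the amino acid response. It stood at 5.05, 5.24 and 5.15 in Rb deleted 1, 2 and 3, against 4.43, 4.57 and 4.61 in Rb intact 1, 2 and 3, a difference of 0.61 ± 0.08 or 1.53-fold. Chac1, which degrades glutathione and is induced through Atf4, stood at 3.65, 3.72 and 3.55 in Rb deleted and at 2.63, 3.16 and 3.17 in Rb intact. Its difference of 0.65 ± 0.16 (1.57-fold) had the widest relative error among the genes that passed the threshold. Rb intact 1 lay 0.54 below the mean of the other Rb intact cultures, and without it the difference was 0.47.

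Sesn2 and Ddit4 both restrain the growth kinase complex mTORC1, Sesn2 as a leucine sensor and Ddit4 through the Tsc complex. Sesn2 stood at 1.36, 1.35 and 1.21 in Rb deleted 1, 2 and 3, against 1.19, 0.97 and 0.99 in Rb intact 1, 2 and 3. Its groups were only 0.02 apart at their nearest values, with Rb deleted 3 just above Rb intact 1, and at 0.26 ± 0.08 (1.19-fold) it was the 1 gene of the 10 that did not pass the threshold. Ddit4 stood at 3.14, 3.20 and 3.07 in Rb deleted and at 2.67, 2.51 and 2.71 in Rb intact, a difference of 0.51 ± 0.07 (1.42-fold). Ddit4 is also induced by hypoxia and glucocorticoids.

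Gdf15, a secreted TGF-beta family cytokine released by stressed cells, had the widest difference of the 10. It stood at -1.42, -1.20 and -1.34 in Rb deleted 1, 2 and 3, against -2.69, -3.34 and -3.20 in Rb intact 1, 2 and 3. The difference was 1.75 ± 0.17, or 3.37-fold, and the nearest values of the groups were 1.27 apart. Here Rb intact 1 was the highest Rb intact culture, 0.57 above the mean of the others, whereas for Atf3, Ddit3, Asns, Chac1 and Nupr1 it was the lowest.

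**Figure D2:**
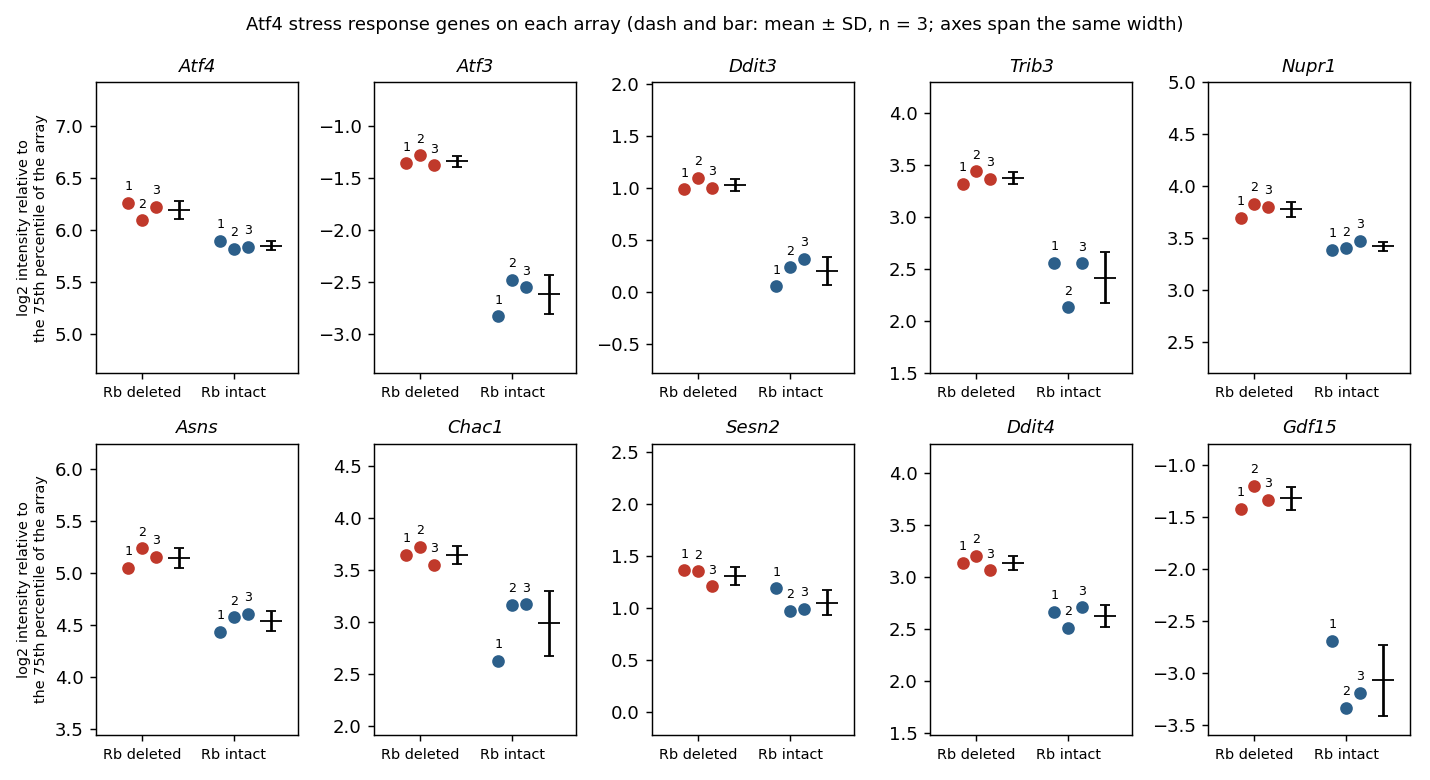
Level of each of the 10 genes on each array, as log2 intensity relative to the 75th percentile of the array. Red points are Rb deleted cultures and blue points Rb intact cultures, with culture numbers above them and the mean ± SD (n = 3) to their right; every red point lies above every blue point of the same gene, by 0.02 for Sesn2 and 1.27 for Gdf15. Levels of different genes come from different probes and are not comparable.

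The spread within the groups was unequal for some genes. Chac1 varied by 0.09 in Rb deleted against 0.31 in Rb intact (SD, n = 3 each), and Gdf15 by 0.11 in Rb deleted against 0.34 in Rb intact. Within the first slide, Rb deleted 1 minus the mean of the Rb intact cultures gave 1.65 for Gdf15, 1.26 for Atf3, 0.90 for Trib3, 0.78 for Ddit3 and 0.66 for Chac1. For Asns, Ddit4, Atf4, Sesn2 and Nupr1 it gave 0.51, 0.51, 0.41, 0.31 and 0.27. All 10 were thus above 0 on that slide too. A slide block gave these same differences, since Rb deleted 2 and 3 had no Rb intact array on their slide. With slide as a block Gdf15, Atf3 and Ddit3 passed the threshold (1.43% of all genes did so upward), and none of the 10 did within the first slide alone, where 0.197% of all genes did. At an adjusted p under 0.01, 6 of the 10 passed, beside 3.23% of all genes. Without Rb deleted 1, 2 or 3 in turn, 7, 7 and 6 of the 10 passed, beside 6.46%, 3.36% and 3.52% of all genes. Without Rb intact 1, 2 or 3, 10, 8 and 8 of the 10 passed, beside 20.3%, 5.56% and 5.62%. Atf4 was lost without Rb deleted 1, Rb deleted 3, Rb intact 2 or Rb intact 3, Nupr1 without Rb deleted 2 or 3 and Chac1 without any 1 Rb deleted culture, while Sesn2 passed only without Rb intact 1. With the replicate number as a block 8 of the 10 passed, beside 5.22% of all genes. All these settings reuse the contrast on which the 10 genes were chosen, so nothing follows from these counts either.

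**Figure D3:**
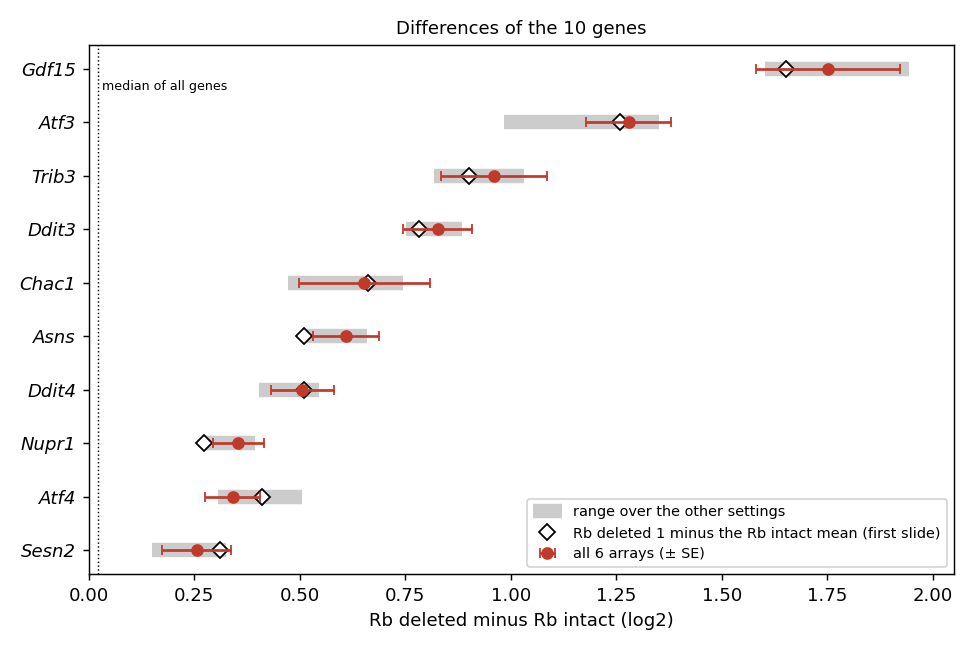
Difference of each of the 10 genes, Rb deleted minus Rb intact, in log2 units. Red points with bars are the fit to all 6 arrays ± SE, open diamonds are Rb deleted 1 minus the Rb intact mean, both on the first slide, and grey bars span the values under the other processing settings and left-out arrays; the dotted line at 0.02 is the median of all tested genes. No value lies below 0.

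The other genes of the pathway were read from lists that were not restricted to genes that moved. The lists were, however, chosen with earlier results of these data known. Of 126 tested genes on 9 such lists 36 rose and 8 fell, beside 10.2% and 10.4% of all tested genes. The enzyme, transporter and synthetase lists held 11, 8 and 8 of the 36 rises. Of the 26 genes that a naming rule picked from the lists, 20 stayed past the threshold whichever array was left out, and 12 with slide as a block.

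Enzymes of serine, one-carbon, proline and related amino acid metabolism were higher for most members. Of 15 tested enzymes 11 rose and none fell, and the median difference was 0.51, against 0.02 over all genes. By limma at an unadjusted p under 0.05, 12 were higher and none lower, beside 19.0% and 16.7% of all genes. Cth, which makes cysteine by transsulfuration, stood at 1.53, 1.58 and 1.56 in Rb deleted 1, 2 and 3, against 0.31, 0.41 and 0.30 in Rb intact 1, 2 and 3. At 1.22 ± 0.06 (SE; 2.32-fold, limma adjusted p = 0.000197) it was the only listed pathway gene past the threshold within the first slide. Gpt2, the mitochondrial alanine aminotransferase, stood at 0.75, 0.88 and 0.90 in Rb deleted and -0.14, -0.08 and -0.06 in Rb intact, a rise of 0.94 ± 0.06 (limma adjusted p = 0.000459). Pck2, the mitochondrial phosphoenolpyruvate carboxykinase, rose by 0.78 ± 0.06 (limma adjusted p = 0.000524). Psph, the last enzyme of serine synthesis, rose by 0.71 ± 0.06 (limma adjusted p = 0.00118). The enzymes that did not pass were Mthfd1, Cbs, Shmt1 and Got1, named after their values were seen; Got1 gave -0.11 ± 0.06 (limma adjusted p = 0.247). With slide as a block 6 of the 15 rose, beside 1.43% of all genes. Without Rb intact 2, Rb intact 3, Rb deleted 2 or Rb deleted 3 in turn 7 did. The shares of all genes were then 5.56%, 5.62%, 3.36% and 3.52%.

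Amino acid transporters were also higher for most members. Of 10 tested, 8 rose and none fell, with a median of 0.44; at an unadjusted p under 0.05 in limma the counts were the same, beside the same 19.0% and 16.7% of all genes. Slc6a9, a glycine transporter, stood at 3.43, 3.50 and 3.50 in Rb deleted 1, 2 and 3, against 2.68, 2.70 and 2.81 in Rb intact 1, 2 and 3, and rose by 0.75 ± 0.06 (1.68-fold, limma adjusted p = 0.0008). The cationic amino acid transporters Slc7a1 and Slc7a3 rose by 0.53 ± 0.05 and 0.62 ± 0.09 (limma adjusted p = 0.00136 and 0.0072). Slc7a5, the large neutral amino acid transporter that imports leucine, rose by 0.48 ± 0.06 (limma adjusted p = 0.00273). Slc7a11, the cystine importer, and Slc38a2, a glutamine transporter, did not pass, at 0.13 ± 0.11 and 0.00 ± 0.06; both were named after their values were seen. With slide as a block 4 of the 10 rose, beside 1.43% of all genes. Without Rb intact 3 or Rb deleted 3, 4 did, beside 5.62% and 3.52% of all genes. Without Rb deleted 1 or Rb deleted 2, 5 did, beside 6.46% and 3.36%.

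Cytosolic aminoacyl-tRNA synthetases, which charge tRNAs with their amino acids, had smaller differences. Of 20 tested 8 rose and none fell, with a median of 0.26; at an unadjusted p under 0.05 in limma, 12 were higher and none lower (all genes, 19.0% and 16.7%). Vars, for valine, rose by 0.41 ± 0.05 (1.33-fold, limma adjusted p = 0.00429) and Mars1, for methionine, by 0.38 ± 0.05 (limma adjusted p = 0.00429). Aars, for alanine, rose by 0.34 ± 0.06 and Sars, for serine, by 0.29 ± 0.05 (limma adjusted p = 0.013 and 0.0138). The Aars call was lost without Rb deleted 2 or 3, and the Sars call without those or Rb intact 2 or 3. No synthetase passed with slide as a block, as 1.43% of all genes did upward. Without Rb intact 1, 15 rose, when 20.3% of all genes did. Without Rb intact 2, 4 rose, beside 5.56% of all genes. Without Rb deleted 2 or Rb deleted 3, 2 rose, beside 3.36% and 3.52%.

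**Figure D4:**
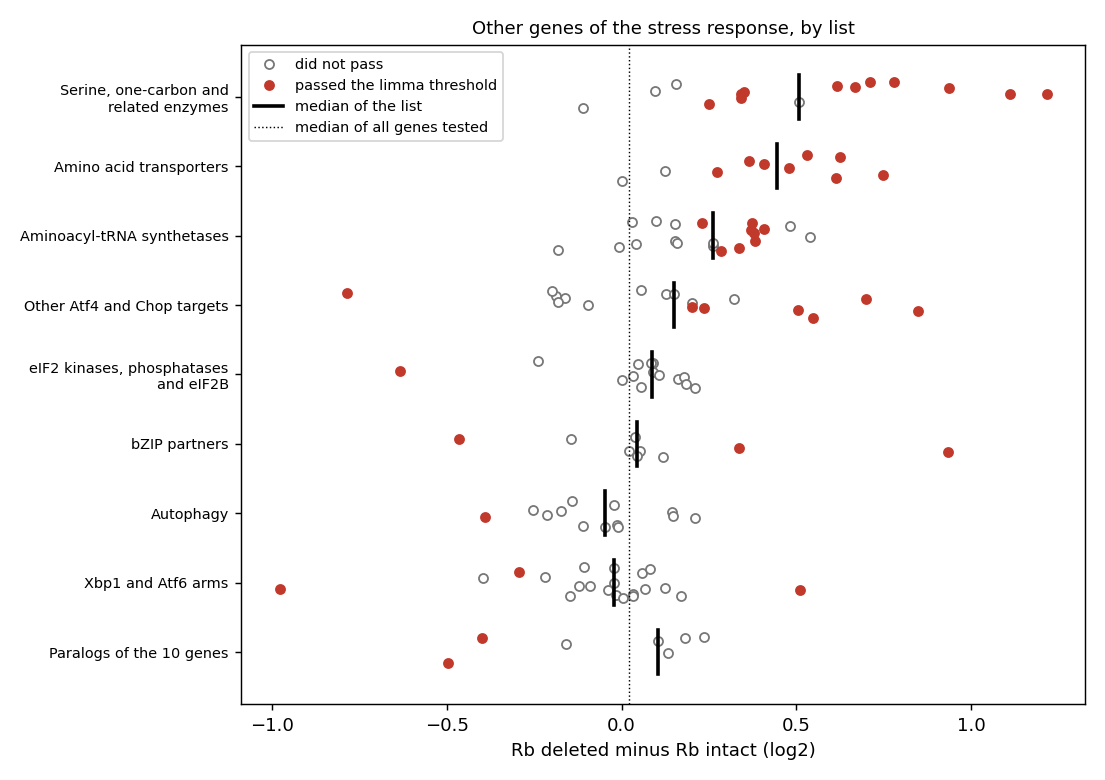
Difference of each tested gene on 9 lists of the stress response, Rb deleted minus Rb intact, in log2 units. Filled points passed the limma threshold and open points did not, black bars are list medians and the dotted line is the median of all tested genes; the medians of the enzyme, transporter and synthetase lists are 0.51, 0.44 and 0.26, and that of the Xbp1 and Atf6 arms is -0.02.

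Among 17 other known targets of Atf4 and Chop, 6 rose and 1 fell, beside 10.2% and 10.4% of all genes, with a median of 0.15. At an unadjusted p under 0.05 in limma, 6 were higher and 2 lower, beside 19.0% and 16.7% of all genes. The difference was above 0 for 11 of the 17. Adm2, a stress-induced peptide hormone, rose by 0.70 ± 0.07 (1.62-fold, limma adjusted p = 0.00136), as did the Cdk inhibitor gene Cdkn1a by 0.85 ± 0.10 (limma adjusted p = 0.0028). Stc2, a secreted stanniocalcin, rose by 0.55 ± 0.09 (limma adjusted p = 0.00814) and Vegfa, the angiogenic growth factor, by 0.50 ± 0.09 (limma adjusted p = 0.0129); the Vegfa call was lost without Rb deleted 2 or 3. Hmox1, a heme-degrading enzyme that Nrf2 also controls, fell by 0.79 ± 0.16 (limma adjusted p = 0.0201) and was named after its values were seen; its call was lost without any single array other than Rb intact 1. With slide as a block 2 of the 17 rose, beside 1.43% of all genes. Without Rb deleted 2 or 3 only 3 did, beside 3.36% and 3.52% of all genes.

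Upstream of Atf4 lies the eIF2 machinery. Of 14 genes for eIF2 kinases, eIF2 phosphatase subunits, eIF2B and their regulators none rose and 1 fell, with a median of 0.09. At an unadjusted p under 0.05 in limma, 3 were higher and 2 lower, near the 19.0% and 16.7% of all genes. Without Rb intact 1, 5 rose, when 20.3% of all genes did. The fall was that of Impact, an inhibitor of Gcn2 activation, which stood at 2.26, 2.22 and 2.23 in Rb deleted 1, 2 and 3, against 2.93, 2.86 and 2.83 in Rb intact 1, 2 and 3. It fell by 0.63 ± 0.05 (1.55-fold lower, limma adjusted p = 0.000869), and also with slide as a block (-0.61, limma adjusted p = 0.0235), as 3.42% of all genes did downward. Eif2ak4, which encodes the amino acid sensor Gcn2, gave 0.03 ± 0.12 and Eif2ak3, which encodes the ER stress sensor Perk, gave -0.24 ± 0.08 (limma adjusted p = 0.0819); both were named after their values were seen. Kinase activity and eIF2 phosphorylation were not measured.

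Of 9 bZIP partners of Atf4, 2 rose and 1 fell, beside 10.2% and 10.4% of all genes. At an unadjusted p under 0.05 in limma the counts were the same, near the 19.0% and 16.7% of all genes. Batf3, a factor of the AP-1 family, stood at -1.27, -1.28 and -1.10 in Rb deleted 1, 2 and 3, against -2.36, -2.09 and -2.001 in Rb intact 1, 2 and 3, and rose by 0.93 ± 0.11 (1.91-fold, limma adjusted p = 0.00293). Jdp2, a repressor of the same family, rose by 0.34 ± 0.06 (limma adjusted p = 0.0163), a call lost without any single array other than Rb intact 1. Nfe2l2, which encodes Nrf2, the regulator of antioxidant genes, fell by 0.46 ± 0.06 (limma adjusted p = 0.00426). With slide as a block the fall of Nfe2l2 passed, and Batf3 narrowly missed at 0.88 (limma adjusted p = 0.0542). Cebpb and Cebpg, known partners of Atf4 on its composite element and named after their values were seen, gave 0.05 ± 0.08 and 0.04 ± 0.09.

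The arms of the unfolded protein response that run through Xbp1 and Atf6 induce ER chaperones. Of 21 tested genes 1 rose and 2 fell, beside 10.2% and 10.4% of all genes, with a median of -0.02. At an unadjusted p under 0.05 in limma, 1 was higher and 5 lower, beside 19.0% and 16.7% of all genes. Derl3, a factor of ER-associated degradation, fell by 0.98 ± 0.08 (1.97-fold lower, limma adjusted p = 0.000712). Its signal was low, at -4.88, -4.91 and -4.96 in Rb deleted 1, 2 and 3. In Rb intact 1, 2 and 3 it stood at -3.91, -3.83 and -4.07. It was nevertheless well above background on every array. Syvn1, the ubiquitin ligase of that process, fell by 0.29 ± 0.06 (limma adjusted p = 0.0225), and Atf6 rose by 0.51 ± 0.11 (limma adjusted p = 0.0223). With slide as a block the calls for Atf6 (0.31, limma adjusted p = 0.228) and Syvn1 (-0.27, limma adjusted p = 0.218) were lost, while Derl3 still passed at -0.94. The Atf6 call was lost also without Rb intact 2, Rb intact 3, Rb deleted 2 or Rb deleted 3, and the Syvn1 call without Rb intact 3 or any 1 Rb deleted array; 5 genes fell without Rb intact 1, when 17.5% of all genes did. The chief ER chaperone Hspa5, named after its values were seen, stood at 5.49, 5.46 and 5.38 in Rb deleted and 5.61, 5.49 and 5.56 in Rb intact, a difference of -0.11 ± 0.06 (limma adjusted p = 0.251).

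**Figure D5:**
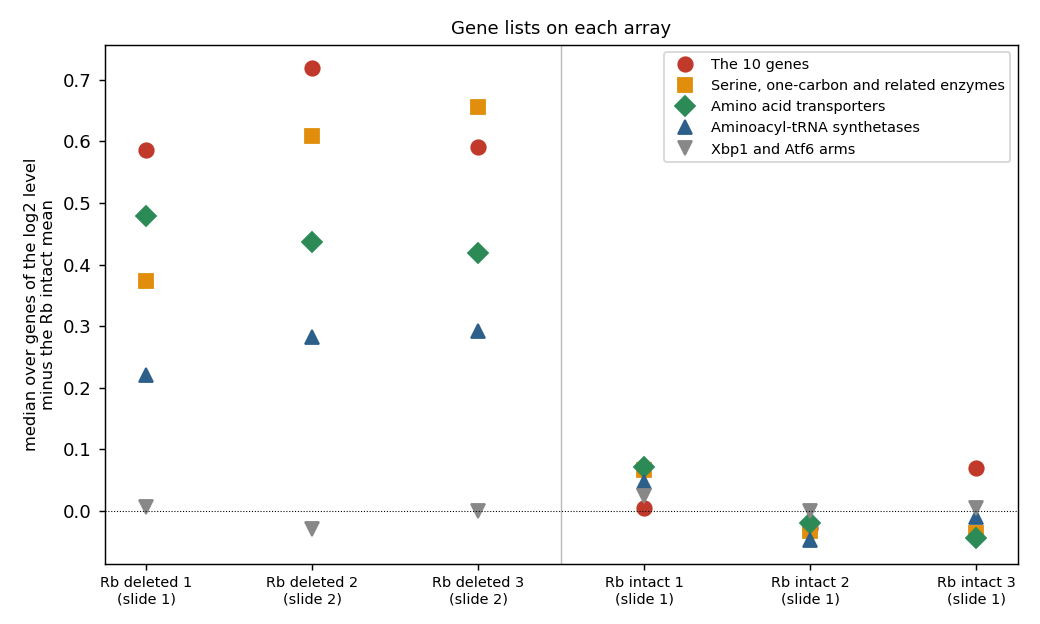
Median over the genes of a list of the log2 level minus that gene's mean over the Rb intact arrays, for each array, with Rb deleted arrays on the left. The 10 genes lie between 0.59 and 0.72 in Rb deleted cultures and between -0.03 and 0.07 in Rb intact cultures, while the Xbp1 and Atf6 arms stay within 0.03 of 0 in all 6 cultures.

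Autophagy genes, several of which Atf4 and Chop are known to induce, were the next list. Of 13 tested none rose and 1 fell, with a median of -0.05; the fall was that of Atg7, which activates ubiquitin-like proteins of the autophagosome (-0.39 ± 0.06, limma adjusted p = 0.00754). The Atg7 call was lost with slide as a block (-0.38, limma adjusted p = 0.0986). At an unadjusted p under 0.05 in limma, 1 was higher and 4 lower, beside 19.0% and 16.7% of all genes, and without Rb intact 1, 3 fell, when 17.5% of all genes did. Of 7 tested genes listed as paralogs of the 10 genes none rose and 2 fell, beside 10.2% and 10.4% of all genes. At an unadjusted p under 0.05 in limma the counts were the same, beside 19.0% and 16.7% of all genes. The related bZIP factors Jdp2, which rose, and Atf5, which did not pass, were counted among the partners of Atf4 instead. Sesn3, the sestrin under FoxO control, fell by 0.40 ± 0.06 (limma adjusted p = 0.0065) and Gdf11, a TGF-beta family ligand, fell by 0.50 ± 0.06 (limma adjusted p = 0.00406). Neither Sesn3 nor Gdf11 passed with slide as a block.

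The composite element was also searched in the promoter windows of these lists. Among 103 listed genes with a window 14 held it. Of the 13 of these that were tested 5 rose and none fell, beside 36 rises among all 126 tested listed genes; the 5 were Jdp2, Pck2, Slc1a4, Aars and Gars. It was in 5 of 13 synthetases, 2 of 7 transporters, 3 of 14 amino acid enzymes and 3 of 13 other Atf4 and Chop targets. None of the 18 genes of the Xbp1 and Atf6 arms, 11 of the eIF2 list, 10 of the autophagy list or 9 paralogs with a window held it. The ER stress response element, by contrast, was in 8 of those 18 genes of the Xbp1 and Atf6 arms. Slc7a11, which did not pass the test, held 2 matches, so holding the element and rising did not coincide for each gene.

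Tested genes outside the 10 whose levels followed them most closely over the 6 arrays were Lck, Dcp1b, Ctdspl and Cdca8. Lck encodes a Src-family kinase, Dcp1b an mRNA decapping factor, Ctdspl a small phosphatase and Cdca8 a chromosomal passenger protein. Pearson's r with the mean of the 10 genes, each centred on its own mean, was 0.999 for each of them. The 6 arrays form 2 separate groups, so r mostly follows the difference between them, and 115 genes exceeded 0.99.

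Of 5 basal markers tested 4 fell and none rose, by the adjusted limma threshold that 10.4% of all genes passed downward, and none rose at an unadjusted p under 0.05. No basal marker fell with slide as a block or within the first slide alone, 2 did with normexp or with the replicate number as a block, and 1 to 4 did with 1 array left out. Over all 13729 genes, 1397 fell with normexp, 921 with the replicate number as a block, and 17.5% without Rb intact 1. Itga6, an integrin subunit, stood at 4.44, 4.46 and 4.42 in Rb deleted 1, 2 and 3, against 5.16, 4.89 and 4.99 in Rb intact 1, 2 and 3. Among the other falls, Col17a1 and Itgb4 were dim, with means of -5.86 and -3.36 in Rb deleted and -5.40 and -2.95 in Rb intact. Trp63 passed narrowly (-0.25 ± 0.07, limma adjusted p = 0.0492). The summed level of the 8 basal markers, in units of the 75th percentile of the array, lay between 23.1 and 23.8 in Rb deleted cultures and between 31.6 and 37.99 in Rb intact cultures, but the Itga6 probe alone made up 92.0% to 94.3% of it, so the sum says little of the other markers. The luminal sum, of which the Krt18 probe made up 94.5% to 95.8%, lay between 10.6 and 12.2 in Rb deleted and between 12.2 and 13.7 in Rb intact. The 8 fibroblast markers summed to between 328 and 347 in Rb deleted and between 330.2 and 360 in Rb intact, and of 8 tested 1 fell. The 7 leukocyte and endothelial markers with a probe summed to between 4.85 and 5.77 in Rb deleted and between 5.51 and 5.81 in Rb intact. No luminal, leukocyte or endothelial marker passed, and at an unadjusted p under 0.05 in limma 1 luminal and 1 leukocyte or endothelial marker were higher. The sums were added after the data were seen. The part of the lower basal markers in the differences of the stress genes was not tested.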

How the data were processed

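RNA of 6 prostate cell cultures was hybridised to 1-colour Agilent arrays. The authors made the deposited intensity values with Agilent Feature Extraction (11.0.1.1 per the file headers, 10.7.3.1 per the submitters' processing notes); they are background-subtracted and not scaled between arrays. The deposited flags take the values 0 or 1. The deposited table of log2 values equalled log2 intensity minus a constant for each array, within 0.01 for 100% of its 22164 probes, with column medians between -0.52 and -0.49 and unstated centring; it served as an alternative.

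From the 43020 non-control spots, outlying ones were dropped and spots of a probe averaged as log2. The 75th percentile of an array was then subtracted. Probes well above background on all 3 arrays of a group were kept, and each gene took its brightest passing probe. RefSeq accessions named 27427 of 39429 probes (table of GRCm38.p6; the array was designed on mm9, so no array coordinates are given). The normexp alternative took median spot and background signals, with an offset of 50. The comparison used limma 3.58.1 (R 4.3.3), without a block, over 13729 genes; 17 of the array values were missing and left out of the fit of their gene. The fit was tested on simulated data with independent noise and no slide effect, and with changes larger than most of those described here. That test therefore does not cover the slides or small differences.

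The 10 genes, the lists and the tests were chosen with earlier results of these data known. Named genes of a list are its called genes with the smallest p, up to 4; others are marked. Of the listed genes, Pycr1 and Atf7 had no named probe and Kdm7a, Ddit4l and Nupr2 only dim ones. The replicate numbers were checked, and same-numbered cultures showed no shared variation, which does not exclude that they were paired. The labels speak of independent experiments, but not of separate animals, so p-values measure the spread between these cultures. The number of arrays limits the precision.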

Additional observations from a re-analysis of the deposited data

How the results depend on the processing

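None of the 10 genes changed direction under the 17 other settings tried, and neither did the 26 genes of the other lists that the naming rule gave. Over the settings the difference ran from 1.60 to 1.94 for Gdf15, from 0.98 to 1.35 for Atf3 and from 0.15 to 0.32 for Sesn2. Over all genes, 1399 were called higher and 1430 lower. A slide block gave 197 and 469, the first slide alone 27 and 126, at an adjusted p under 0.01 443 and 684, and without the filter on dim probes 625 and 859. Leaving out 1 array each gave 461 to 2781 higher and 768 to 2399 lower; the highest counts came without Rb intact 1. Of the 10 genes 3 were called under a slide block, 0 on the first slide alone, 6 at 0.01, and 6 to 10 with 1 array left out. Of the other listed genes, 36 higher and 8 lower, 12 and 3 were called under a slide block, 1 and 0 on the first slide alone, 17 and 6 at 0.01, 20 higher without the filter, and 17 to 56 higher and 6 to 16 lower with 1 array left out. With the replicate number as a block (replicate block) 717 genes were called higher and 921 lower. Of the other listed genes 21 were called higher, as were 8 of the 10 genes. Deviations of same-numbered cultures correlated between -0.05 and 0.02, so no variation shared by number was seen. That does not exclude that same-numbered cultures were paired. The cause of these changes was not tested. The first slide alone and the left-out arrays also brought fewer arrays, and the cut at 0.01 a stricter threshold. The slide block kept all 6 arrays, but Rb deleted 2 and 3 had no Rb intact array on their slide. Its differences were therefore those of the first slide, Rb deleted 1 minus the Rb intact mean. It is not a check separate from the first slide alone. The replicate block and the setting without the filter brought neither fewer arrays nor a stricter threshold.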
